A study of Mus musculus with 10 samples.

Results

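Interferon-stimulated genes were followed across 10 libraries of mouse retinal RNA. They are 46 genes fixed by name, from the antiviral IFIT, OAS, Mx and guanylate-binding protein families to the sensors and transcription factors of the interferon response. Each of the 46 was matched to 1 row of a count table of 19999 genes, and 43 passed the filter on low counts that left 16852 genes for testing. The mice were BALB/c, an albino laboratory strain. One group of 5 libraries came from a light-induced damage model and the other 5 were controls, and the library names of both carry the word vehicle. The design text names an agent, A74, and the series title an inhibition of P2RX7 and cGAS-STING signalling. The count table holds no libraries beyond these 10, so that treatment was not analysed here. The labels used here give no genotype beyond the strain, no age, no sex, no light dose and no time after exposure. Nothing in them says that each library came from its own animal, so p-values reflect library-to-library spread only, part of which may be technical.

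Type I interferons are secreted when a cell senses foreign or misplaced nucleic acid, for example through RIG-I-like receptors or through cGAS and STING. They bind the receptor pair IFNAR1 and IFNAR2, the kinases JAK1 and TYK2 phosphorylate STAT proteins, and the complex ISGF3 forms, which contains STAT2 and IRF9. ISGF3 binds the interferon-stimulated response element (ISRE) in promoters and switches on many antiviral genes together. Type II interferon acts through the gamma-activated site and drives the GTPases of the GBP and IRG families more strongly. In the retina, microglia and Müller glia are among the cells known to answer interferon.

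Totals per library lay between 17900227 and 20337329 counts in light damage and between 14652535 and 20699236 in control. Rods are the most numerous cells of the mouse retina, and the summed level of 13 rod genes, all of which passed the filter, was 83500, 78200, 64800, 90800 and 82900 CPM (counts scaled to a common library size by TMM) in light damage libraries 1 to 5, against 98700, 87700, 69600, 113000 and 88400 CPM in control libraries 1 to 5. Light damage libraries 1 and 2 stood apart through 9 lens genes, which summed to 7520 and 4020 CPM there. The same genes lay between 21.4 and 118 CPM in light damage libraries 3 to 5 and between 3.28 and 31.4 CPM in the controls. Counts of some members are uncertain because they resemble other genes. In 12 members over 5% of the 50-base transcript windows also occur elsewhere, with 57.6% in Oas1a, 51.2% in Ifit3, 45.0% in Ifit3b, 23.8% in Herc6, 13.6% in Rtp4, 12.8% in Gbp7 and 12.3% in Igtp. In bulk tissue a lower level of a gene can reflect fewer cells of a type or less RNA per cell, and these cannot be told apart.

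Promoters are shown first because the response element in them is what this gene class is known for. RefSeq promoters of build GRCm38.p6, running from 250 bases before to 50 bases after an annotated start site, were at hand for 35 of the 46 genes. They belong to another build than GRCm39, which the submitters' processing notes name. The ISRE core was searched as GAAANNGAAA and as its reverse complement TTTCNNTTTC, and overlapping matches were counted separately. It was present in the promoters of 20 of the 35 genes (57.1%) and of 1079 of all 27025 genes with a promoter (3.99%). The gamma-activated site TTCNNNGAA, which reads the same on both strands, was present for 8 of the 35 (22.9%) and for 9.55% of all genes. A match describes letters in this window and does not show binding. The 4 promoters that follow belong to genes described in full below, and capitals mark the ISRE core.
Ifit3, chr19:34583279-34583578, strand plus: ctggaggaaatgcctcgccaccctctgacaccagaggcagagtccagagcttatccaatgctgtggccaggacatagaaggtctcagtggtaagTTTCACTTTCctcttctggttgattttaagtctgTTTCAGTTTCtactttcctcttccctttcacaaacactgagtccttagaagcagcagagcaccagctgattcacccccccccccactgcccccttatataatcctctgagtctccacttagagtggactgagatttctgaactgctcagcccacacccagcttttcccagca
Oas1a, chr5:120907476-120907775, strand minus: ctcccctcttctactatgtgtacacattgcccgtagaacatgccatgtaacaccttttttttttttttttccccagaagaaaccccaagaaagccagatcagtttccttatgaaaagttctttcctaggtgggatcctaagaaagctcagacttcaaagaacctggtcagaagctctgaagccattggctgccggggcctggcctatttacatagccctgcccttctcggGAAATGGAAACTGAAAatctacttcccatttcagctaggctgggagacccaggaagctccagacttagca
Bst2, chr8:71537423-71537722, strand minus: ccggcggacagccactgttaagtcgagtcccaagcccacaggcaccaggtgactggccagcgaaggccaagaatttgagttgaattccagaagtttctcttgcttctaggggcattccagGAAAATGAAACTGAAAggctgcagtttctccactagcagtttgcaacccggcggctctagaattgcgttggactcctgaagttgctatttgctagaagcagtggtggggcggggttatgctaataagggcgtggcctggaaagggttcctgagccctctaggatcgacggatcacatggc
Ifitm3, chr7:141010695-141010994, strand minus: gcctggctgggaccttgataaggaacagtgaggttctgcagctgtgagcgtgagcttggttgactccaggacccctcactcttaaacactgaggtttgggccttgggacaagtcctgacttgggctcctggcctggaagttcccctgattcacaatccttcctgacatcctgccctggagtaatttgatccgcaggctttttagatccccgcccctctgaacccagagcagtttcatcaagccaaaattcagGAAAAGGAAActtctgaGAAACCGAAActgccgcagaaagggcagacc

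In Oas1a and in Bst2 the 2 matches overlapped by 4 bases, so that the GAAA repeats ran on without a break. Isg15, chosen after its promoter was seen, held 3 overlapping matches. The windows around the matches of Ifit3 and of its neighbour Ifit3b are given beside it because these genes are near copies. The 2 windows were the same in 64 of 64 bases, and capitals again mark the core.
Isg15, chr4:156200865-156200906, strand minus: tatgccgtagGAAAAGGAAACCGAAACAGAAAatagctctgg
Ifit3, chr19:34583363-34583426, strand plus: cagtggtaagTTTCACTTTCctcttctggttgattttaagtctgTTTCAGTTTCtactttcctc
Ifit3b, chr19:34607759-34607822, strand plus: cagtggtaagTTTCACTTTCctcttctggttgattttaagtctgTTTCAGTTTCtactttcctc

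**Figure D1:**
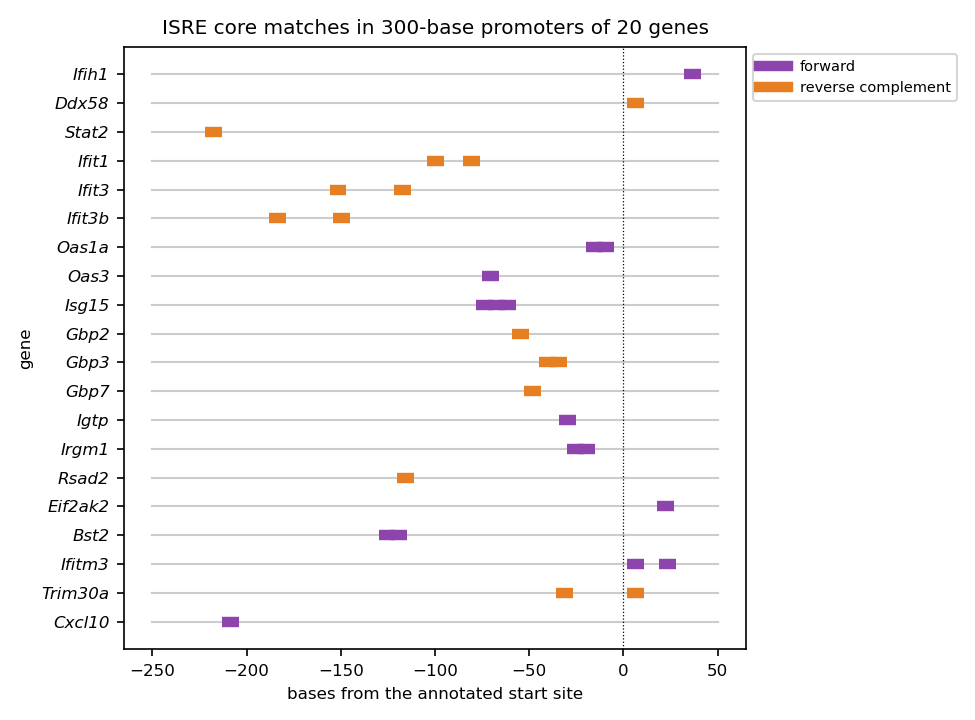
Positions of the ISRE core in the promoters of the 20 genes that hold it. The horizontal axis gives bases from the annotated start site, grey lines span the 300 bases searched, and colours give the strand of the match; the 2 matches of Trim30a come from 2 annotated start sites. Of the 20 genes, 9 hold 2 or more matches in 1 promoter window.

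None of the 43 tested interferon-stimulated genes was called when the 5 light damage libraries were compared with the 5 controls as independent libraries. By edgeR's quasi-likelihood test, with adjusted p under 0.05 over all genes tested, 0 were higher and 0 lower, while 13.2% of all tested genes were called, 5.32% as higher and 7.85% as lower. At an unadjusted p under 0.05 in this test there were 2 of 43 members, Ifi27 and Ifitm3, against 5110 of 16852 genes. DESeq2 and limma-voom also called 0 members, against 17.3% and 11.9% of all tested genes. They had 9 and 2 members at an unadjusted p under 0.05. The fold changes leaned one way all the same. Positive values were found for 40 of 43 members, against 50.3% of all tested genes. The median log2 fold change over the members was 0.71, against 0.00 over all genes tested. The members share the same libraries and mostly the same order of them, so these 43 values are not independent. Without light damage library 3 the median over the members was 0.27. Adjusted p-values ran from 0.133 to 0.922. The standard error of the log2 fold change had a median of 0.527 over the members and 0.0971 over all genes tested. A p that misses the threshold does not show that the groups were alike.

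**Figure D2:**
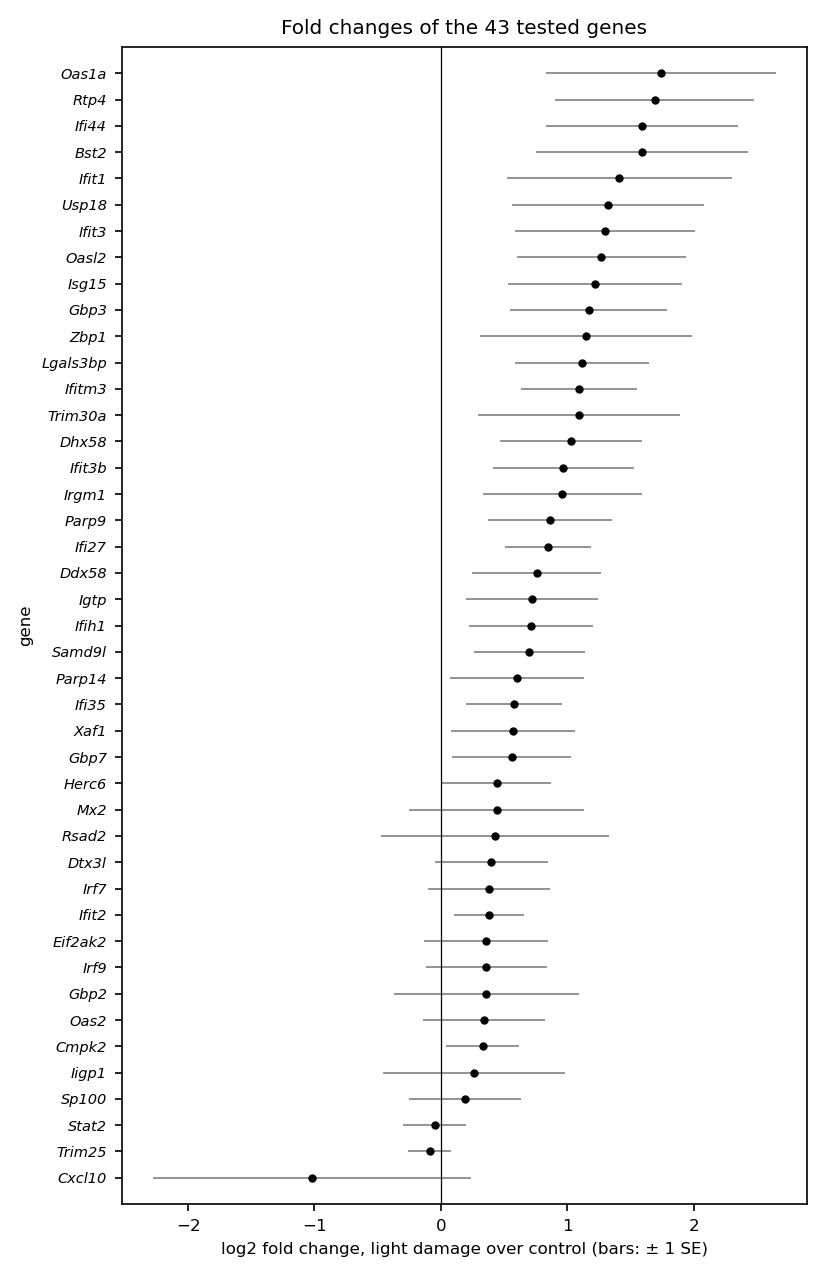
Log2 fold change of light damage over control for each of the 43 tested genes, sorted by value, with bars of 1 standard error on either side. Values run from -1.02 for Cxcl10 to 1.74 for Oas1a, and 40 lie above 0.

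The spread had a regular form. Light damage library 3 had the highest value of all 10 libraries in 38 of the 43 members, against 11.6% of all tested genes, and the highest of its group in 42. Light damage library 2 came second within the group in 40 members and library 4 came next in 39, and libraries 1 and 5 were the lowest of the group in 15 and 28. In 39 members the light damage libraries fell in the order 3, 2, 4, with 1 and 5 below them. Among the controls, library 3 was the highest in 42 of 43 members, against 21.2% of all tested genes. Control library 3 lay above light damage library 1 in 42 members, above library 5 in 43, above library 4 in 40, above library 2 in 16 and above library 3 in 5. The groups overlapped in each of the 43 members, while 9.79% of all tested genes had no overlap.

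The size of these differences can be read from the score of the list. For each of its 43 tested genes the mean of log2 CPM across the 10 libraries was subtracted, and the score is the average of these values in a library. It was -0.54, 0.78, 1.72, 0.30 and -0.82 in light damage libraries 1 to 5, against -0.58, -0.07, 0.79, -0.71 and -0.86 in control libraries 1 to 5. The 46 genes together summed to 323, 727, 1400, 507 and 305 CPM in the light damage libraries and to 321, 417, 727, 308 and 295 CPM in the controls. Light damage libraries 1 and 5 lay within the range of control libraries 1, 2, 4 and 5 in both measures, and light damage library 2 and control library 3 had nearly the same level. Light damage library 3 stood at a median of 3.45 times the median of the other 4 light damage libraries, with a range of 1.44 to 7.08 over the members. Control library 3 stood at a median of 2.50 times the median of the other 4 controls. Over all tested genes both medians were close to 1, at 0.999 and 1.00. The ratio of the highest to the lowest library within light damage had a median of 5.87 over the members and 1.25 over all genes tested; within control it was 3.39 over the members and 1.34 over all genes tested.

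**Figure D3:**
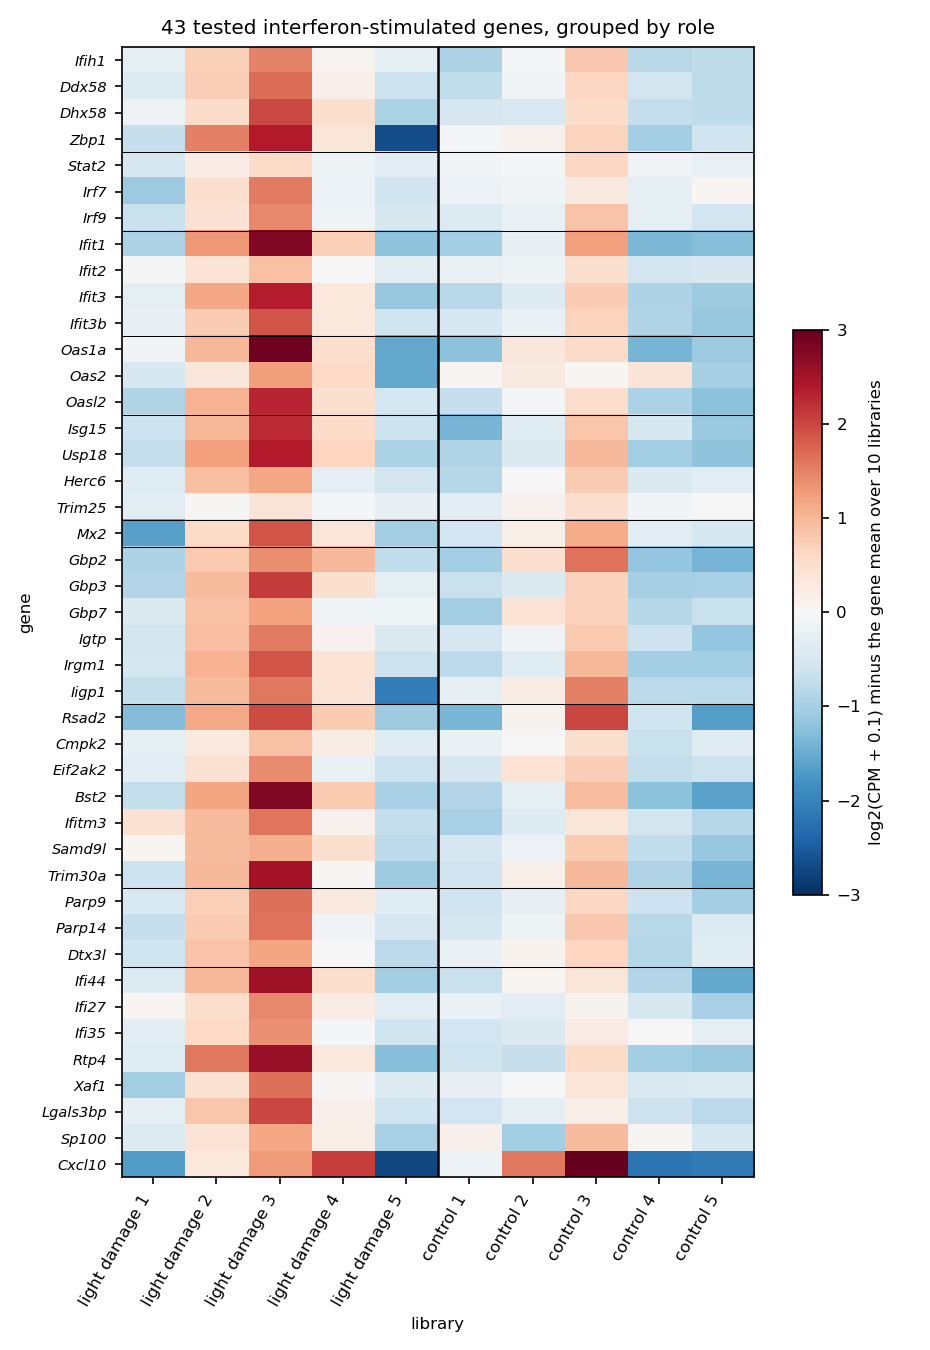
Level of each tested gene in each library as log2(CPM + 0.1) minus the gene's mean, with light damage libraries left of the line and controls right of it, and horizontal lines between roles. The columns of light damage libraries 3 and 2 and of control library 3 are red in nearly all rows, and those of light damage library 5 and control library 5 blue.

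The sensors of viral RNA come first in the order of the pathway. Ddx58 (also Rigi) encodes RIG-I and Ifih1 encodes MDA5, which both signal through MAVS to interferon genes. Ddx58 had 8.28, 18.5, 35.3, 12.2 and 7.07 CPM in light damage libraries 1 to 5, against 6.59, 10.5, 17.1, 7.55 and 6.44 CPM in control libraries 1 to 5. Ifih1 had 6.32, 12.7, 22, 8.20 and 6.40 CPM across the light damage libraries and 4.02, 7.52, 13.6, 4.31 and 4.52 CPM across the controls. Both were highest in light damage library 3. Control library 3 lay above light damage libraries 1, 4 and 5 for Ddx58 and above libraries 1, 2, 4 and 5 for Ifih1. Dhx58, which encodes the regulator LGP2, had 2.46, 4.08, 11.2, 3.88 and 1.39 CPM in the light damage libraries, against 1.91, 1.99, 4.12, 1.65 and 1.58 CPM in the controls. Zbp1, a sensor of Z-form nucleic acid linked to necroptosis, had the highest ratio of highest to lowest light damage library of the 4, with 0.503, 2.69, 4.97, 1.16 and 0.0557 CPM there and 0.855, 0.965, 1.46, 0.381 and 0.548 CPM in control. That ratio, 89.3, rests on a count of 1 in light damage library 5. The log2 fold changes of these 4 genes lay between 0.71 and 1.15, and 0 of 4 were called.

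Of the transcription factors, Stat2 and Irf9 encode parts of ISGF3, and Irf7 amplifies the production of interferon. Stat2 was among the 4 members with the highest level per length over all 10 libraries, at 12.1 CPM per kilobase in light damage, where 5 members lay above it, and 12.5 CPM per kilobase in control, where only Ifitm3 did. Stat2 had 37, 62.3, 78.7, 47 and 41.9 CPM in light damage libraries 1 to 5, against 49.5, 50.5, 81.1, 49 and 45.4 CPM in control libraries 1 to 5. The means were 53.4 CPM (SD 17) over the 5 light damage libraries, against 55.1 CPM (SD 14.7) over the 5 controls, with a log2 fold change of -0.05, with a standard error of 0.25 and an adjusted p of 0.922 in edgeR's quasi-likelihood test. Irf9 had 19.7, 42.5, 84.7, 28.6 and 22.2 CPM across the light damage libraries and 23.6, 26.6, 56.7, 26 and 21 CPM across the controls. Its log2 fold change was 0.36 (SE 0.48). Irf7 had 13.1, 39, 83.1, 24.8 and 18.5 CPM with light damage and 24.9, 26.1, 34, 23.3 and 29.1 CPM in control. Light damage library 1 was the lowest of all 10 libraries for Irf7. The log2 fold change of Irf7 was 0.38 (SE 0.48).

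The IFIT proteins bind viral RNA and hold back its translation. Ifit3 had the second highest level per length among the members over all 10 libraries, at 28.7 CPM per kilobase in light damage and 11.7 CPM per kilobase in control, where it came after Ifitm3 and Stat2. Ifit3 had 20.8, 56.9, 130, 31.5 and 11.4 CPM in light damage libraries 1 to 5, against 14.2, 19.3, 43.2, 13.2 and 12 CPM in control libraries 1 to 5. Ifit3 averaged 50 CPM (SD 47.6) over the 5 light damage libraries, against 20.4 CPM (SD 13.1) over the 5 controls, with a log2 fold change of 1.30, with a standard error of 0.71 and an adjusted p of 0.257 in edgeR's quasi-likelihood test. Light damage libraries 2 and 3 lay above all the controls for Ifit3, and light damage library 5 below all of them. Ifit1 had 4.81, 22.8, 63, 15.1 and 3.90 CPM in light damage libraries and 4.48, 7.72, 21.6, 3.55 and 3.70 CPM in controls, and its value in light damage library 3 was 6.32 times the median of the other 4. Ifit3b followed Ifit3 at a lower level, with 9.73, 19.9, 43.1, 14.5 and 7.62 CPM with light damage and 8.15, 10.1, 18.7, 6.15 and 5.21 CPM in control. Reads of these copies may not be told apart, since 51.2% of the 50-base windows of the longest Ifit3 transcript in GENCODE M21 also occur in Ifit3b. Ifit2 varied least of the family, between 12.1 and 28.4 CPM with light damage and between 10.5 and 21.4 CPM in control. Log2 fold changes of the 4 genes ran from 0.38 to 1.41, and 0 of 4 were called.

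The OAS enzymes make a short adenylate messenger that activates RNase L, which degrades RNA. Oas1a had the largest fold change of all members. Oas1a had 0.783, 1.76, 6.96, 1.22 and 0.223 CPM in light damage libraries 1 to 5, against 0.302, 1.09, 1.30, 0.254 and 0.343 CPM in control libraries 1 to 5. In counts these were 14, 34, 147, 22 and 4 reads in light damage and 6, 17, 24, 4 and 5 reads in control. Oas1a averaged 2.19 CPM (SD 2.73) over the 5 light damage libraries, against 0.659 CPM (SD 0.498) over the 5 controls, with a log2 fold change of 1.74, with a standard error of 0.91 and an adjusted p of 0.237 in edgeR's quasi-likelihood test. The value of light damage library 3 was 6.95 times the median of the other 4 light damage libraries, and 57.6% of the 50-base windows of Oas1a also occur in its neighbour Oas1g. Oasl2, an OAS-like protein, had 14.1, 53.9, 128, 36.9 and 18.1 CPM in the light damage libraries and 16.2, 25.1, 38.1, 13.6 and 11.2 CPM in the controls, a log2 fold change of 1.27 (SE 0.67). Oas2 had at most 29 counts in any library, and was the 1 tested member whose control library 3 was not the highest control. Oas3 and Oasl1 did not pass the filter on low counts. Oas3 had 2, 12, 30, 3 and 3 counts in light damage and 4, 6, 4, 2 and 8 counts in control. Oasl1 had 3, 24, 56, 26 and 2 counts in light damage, against 8, 5, 51, 5 and 3 counts in control.

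Isg15 encodes a ubiquitin-like protein that is attached to other proteins, and Usp18 both removes it and blocks signalling at the interferon receptor. Isg15 had 2.57, 8.01, 19.1, 5.87 and 2.50 CPM in light damage libraries 1 to 5, against 1.46, 3.09, 7.16, 2.85 and 1.78 CPM in control libraries 1 to 5. Usp18 had 2.35, 9.31, 21, 6.26 and 2 CPM across the light damage libraries and 2.06, 2.89, 7.86, 1.90 and 1.64 CPM across the controls. Their log2 fold changes were 1.22 (SE 0.69) and 1.32 (SE 0.76). For both genes control library 3 lay above light damage libraries 1, 4 and 5. Herc6, the main ligase for ISG15 in mice, lay between 2.34 and 7.90 CPM with light damage and between 1.86 and 5.91 CPM in control. Trim25, a ubiquitin ligase that acts with RIG-I, differed least between libraries. Trim25 had 27.9, 35.5, 45.1, 33.6 and 29.1 CPM in light damage libraries 1 to 5, against 27.5, 37.9, 49.1, 32.7 and 34.9 CPM in control libraries 1 to 5. Its log2 fold change was -0.09 (SE 0.17), the smallest error among the 43.

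Mx1 and Mx2 encode dynamin-like GTPases that trap viral particles, and many inbred mouse strains carry defective Mx1 alleles. Mx1 did not pass the filter on low counts, with 3, 17, 49, 16 and 2 counts in light damage and 4, 2, 32, 6 and 0 counts in control. Mx2 had 0.559, 2.90, 7.43, 2.49 and 0.891 CPM in the light damage libraries, against 1.26, 2.19, 4.29, 1.52 and 1.30 CPM in the controls, a log2 fold change of 0.44 (SE 0.69). Light damage library 1 was the lowest of all 10 for Mx2.

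The guanylate-binding proteins Gbp2, Gbp3 and Gbp7 and the immunity-related GTPases Igtp, Irgm1 and Iigp1 attack the vacuoles of intracellular parasites and bacteria, and are known for their answer to type II interferon. Gbp3 had the largest fold change of the 6, with 4.64, 16.8, 37, 12.1 and 7.07 CPM in light damage, against 5.33, 6.37, 14, 4.25 and 4.32 CPM in control, a log2 fold change of 1.17 (SE 0.62). Gbp2 was 1 of the 5 members in which control library 3 exceeded light damage library 3. Gbp2 had 4.92, 16.3, 25.1, 18.8 and 5.62 CPM in light damage libraries 1 to 5, against 4.63, 13.2, 29.3, 4.19 and 3.56 CPM in control libraries 1 to 5. The fold change of Gbp2 was 0.36 (SE 0.73) on the log2 scale. Irgm1 had 6.54, 19.8, 35.6, 12.8 and 6.07 CPM across the light damage libraries and 5.53, 7.40, 19.1, 4.69 and 4.66 CPM across the controls. Igtp ranged from 5.54 to 24.1 CPM with light damage and from 3.56 to 14 CPM in control, and Gbp7 from 4.81 to 15.3 CPM with light damage and from 3.12 to 10.7 CPM in control. Iigp1 was low throughout, at most 3.98 CPM with light damage and 3.80 CPM in control. Of the 6 genes 0 were called.

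Among the remaining antiviral effectors, Ifitm3 and Bst2 act in membranes, Ifitm3 against the entry of viruses and Bst2, or tetherin, against their release. Ifitm3 had the highest level per length of all members, at 31.9 CPM per kilobase in light damage and 15 CPM per kilobase in control, and the second lowest p. Ifitm3 had 18.1, 26.2, 41.1, 14.6 and 8.13 CPM in light damage libraries 1 to 5, against 6.74, 10.3, 17.4, 9.20 and 7.33 CPM in control libraries 1 to 5. Light damage libraries 1, 2 and 3 lay above all controls for Ifitm3, and library 5 below controls 2, 3 and 4. Ifitm3 averaged 21.6 CPM (SD 12.7) over the 5 light damage libraries, against 10.2 CPM (SD 4.26) over the 5 controls, with a log2 fold change of 1.09, with a standard error of 0.46 and an adjusted p of 0.156 in edgeR's quasi-likelihood test. Bst2 had 3.41, 12.9, 39.3, 9.75 and 2.84 CPM in light damage libraries 1 to 5 and 3.02, 4.57, 10.7, 2.35 and 1.78 CPM in control libraries 1 to 5. Bst2 averaged 13.6 CPM (SD 15) over the 5 light damage libraries, against 4.49 CPM (SD 3.65) over the 5 controls, with a log2 fold change of 1.59, with a standard error of 0.84 and an adjusted p of 0.242 in edgeR's quasi-likelihood test. Rsad2, or viperin, which makes a chain-terminating nucleotide, had 1.17, 6.83, 12.1, 5.21 and 1.39 CPM in light damage, while control held 1.11, 3.28, 12.5, 1.97 and 0.891 CPM. Its highest library was control library 3, just above light damage library 3. Cmpk2, a kinase that supplies nucleotides to viperin, ranged from 13.9 to 33.2 CPM with light damage and from 11.2 to 24.8 CPM in control. Eif2ak2, which encodes the RNA-activated kinase PKR, ranged from 4.90 to 20.8 CPM with light damage and from 4.63 to 13 CPM in control. Samd9l and Trim30a had log2 fold changes of 0.70 (SE 0.44) and 1.09 (SE 0.80).

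Parp9 and Dtx3l form a pair of enzymes that modify histones, and Parp14 is a further mono-ADP-ribosyltransferase. Parp9 had 6.04, 13.6, 26.3, 10.2 and 6.40 CPM in light damage, against 5.48, 6.95, 12.7, 5.39 and 4.04 CPM in control. Parp14 ranged from 6.43 to 32.1 CPM with light damage and from 5.77 to 18.2 CPM in control. Dtx3l ranged from 4.01 to 15.9 CPM with light damage and from 3.81 to 10.8 CPM in control. The log2 fold changes of these 3 genes lay between 0.40 and 0.86.

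Ifi27, a small hydrophobic membrane protein, had the lowest p of all members. Ifi27 had 8.28, 11.4, 21.6, 9.25 and 6.23 CPM in light damage libraries 1 to 5, against 6.89, 6.37, 8.52, 5.64 and 3.97 CPM in control libraries 1 to 5. Light damage libraries 2, 3 and 4 lay above all the controls for Ifi27, and libraries 1 and 5 within their range. Ifi27 averaged 11.4 CPM (SD 6.03) over the 5 light damage libraries, against 6.28 CPM (SD 1.67) over the 5 controls, with a log2 fold change of 0.85, with a standard error of 0.34 and an adjusted p of 0.133 in edgeR's quasi-likelihood test. Rtp4, a chaperone of receptor transport that also restrains viral RNA, had 1.57, 6.26, 12.9, 2.55 and 0.779 CPM in light damage libraries and 1.31, 1.22, 3.04, 0.951 and 0.891 CPM in controls, with a log2 fold change of 1.69, with a standard error of 0.79 and an adjusted p of 0.189 in edgeR's quasi-likelihood test. Ifi44, a GTP-binding protein, had 0.559, 1.65, 5.06, 1.16 and 0.334 CPM with light damage and 0.453, 0.836, 1.03, 0.381 and 0.206 CPM in control, with a log2 fold change of 1.59, with a standard error of 0.76 and an adjusted p of 0.190 in edgeR's quasi-likelihood test. Its counts were low, at most 107 in light damage and 19 in control.

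Lgals3bp, a secreted galectin ligand, was among the 4 members with the highest level per length, at 19.3 CPM per kilobase in light damage and 8.92 CPM per kilobase in control. Lgals3bp had 21.9, 47.8, 108, 29.7 and 17.6 CPM in light damage libraries 1 to 5, against 18, 21.9, 31, 17.4 and 15.6 CPM in control libraries 1 to 5. Lgals3bp averaged 45 CPM (SD 37) over the 5 light damage libraries, against 20.8 CPM (SD 6.18) over the 5 controls, with a log2 fold change of 1.12, with a standard error of 0.53 and an adjusted p of 0.195 in edgeR's quasi-likelihood test. The controls ranged from 15.6 to 31 CPM, with control library 3 the highest, and light damage libraries 2 and 3 lay above all of them. Ifi35, a leucine zipper protein, Xaf1, a pro-apoptotic factor, and Sp100, a nuclear body protein, had log2 fold changes of 0.58 (SE 0.38), 0.57 (SE 0.49) and 0.19 (SE 0.44). Cxcl10, a chemokine that draws T cells, was an exception to the common order. Cxcl10 had 0.224, 1.19, 2.41, 4.26 and 0.0557 CPM in light damage libraries 1 to 5, against 0.805, 2.96, 12.4, 0.127 and 0.137 CPM in control libraries 1 to 5. In counts these were 4, 23, 51, 77 and 1 in light damage and 16, 46, 228, 2 and 2 in control. The highest Cxcl10 value was in control library 3, and within light damage library 4 lay above library 3. Its log2 fold change was -1.02 (SE 1.26), the lowest and least certain of the 43.

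**Figure D4:**
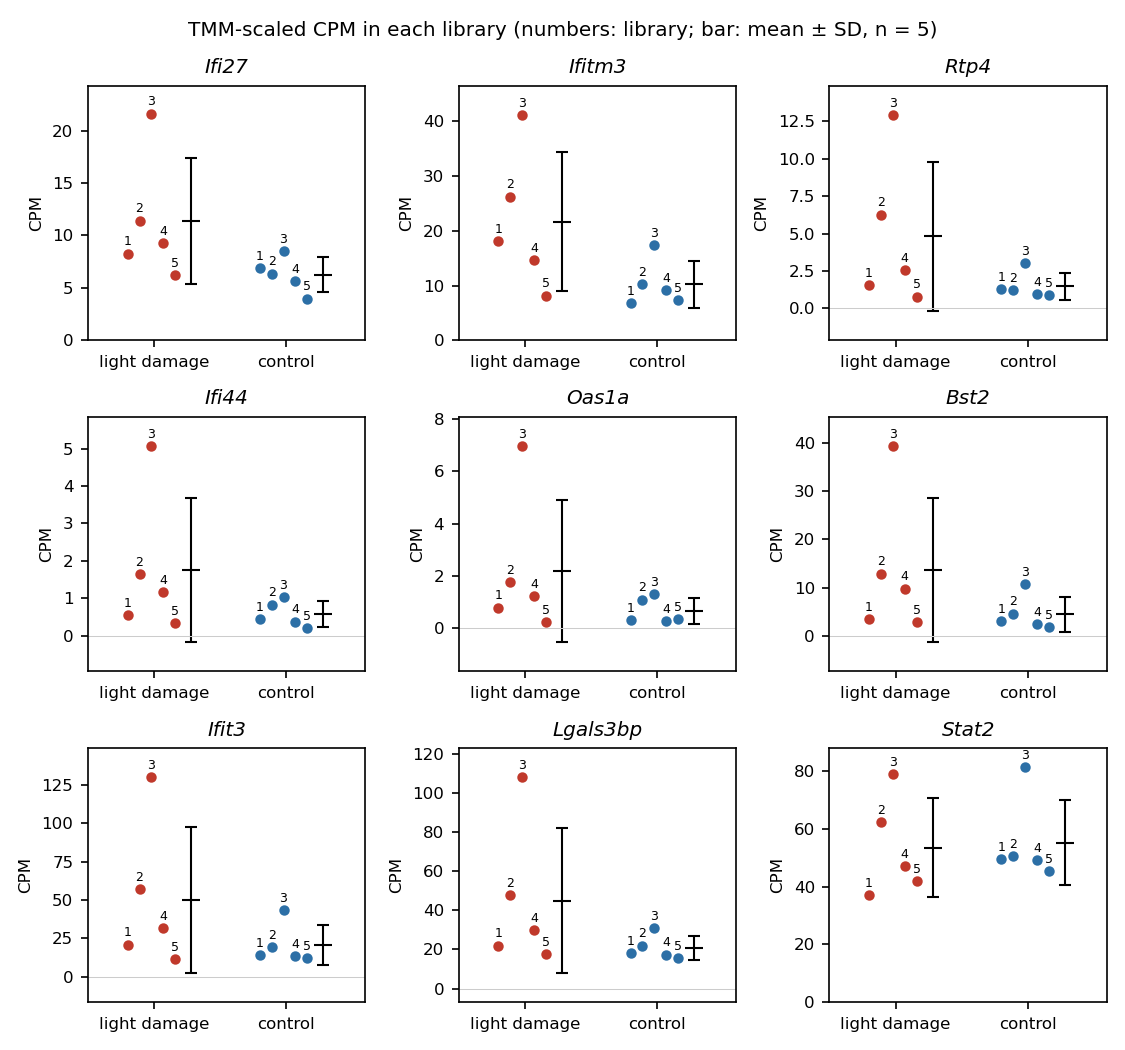
CPM of 9 members in each library, light damage left and control right; the number beside a point is the library, and the bar gives mean ± SD of 5 libraries. Library 3 is the highest of its group in each panel, and for Stat2 control library 3, at 81.1 CPM, lies just above light damage library 3, at 78.7 CPM.

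Further genes of the pathway were taken from lists written out by role. The 50 tested genes of a list of other interferon-stimulated genes showed the same order of libraries, with scores of -0.27, 0.52, 1.12, 0.06 and -0.49 in light damage libraries 1 to 5 and -0.39, -0.06, 0.51, -0.42 and -0.58 in control libraries 1 to 5. Of the 50, 42 had positive fold changes, against 50.3% of all tested genes, and the median log2 fold change was 0.52. These values are not independent either, since the genes share the same libraries. Only 1 of the 50 was called, against 13.2% of all tested genes. That gene was Ifi30, a lysosomal thiol reductase of antigen processing, which had 6.54, 9.10, 10.4, 4.93 and 4.17 CPM with light damage and 3.92, 4.24, 5.21, 4.25 and 3.56 CPM in control. It rose with a log2 fold change of 0.73, with a standard error of 0.23 and an adjusted p of 0.0465 in edgeR's quasi-likelihood test, and the call held in 2 of the 10 fits that leave out 1 library, being lost when any 1 of light damage libraries 1 to 3 or any 1 control was left out, at adjusted p up to 0.112. B2m, the light chain of MHC class I, named after its values were seen, had 39.3, 82.7, 169, 48.7 and 27.9 CPM with light damage and 36.8, 28.9, 49.7, 32 and 21.6 CPM in control.

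Genes upstream of the response had narrower ranges of scores. Of 5 tested receptor genes 0 were called by edgeR's quasi-likelihood test, and their log2 fold changes lay between -0.10 and 0.33. Of 8 JAK and STAT genes 1 was called, Stat5b, which had 77, 73, 78.6, 69.8 and 69.7 CPM with light damage and 54.2, 69.6, 60.6, 52.6 and 71.5 CPM in control and rose with a log2 fold change of 0.26, with a standard error of 0.08 and an adjusted p of 0.0485 in edgeR's quasi-likelihood test. That call held in 2 of the 10 fits that leave out 1 library, those without control library 2 or 5. Of 9 feedback inhibitors, the SOCS, PIAS and phosphatase genes, 0 were called, and 2 had an unadjusted p under 0.05. Of 13 genes of nucleic acid sensing 2 fell and 0 rose, while 7.85% of all tested genes fell and 5.32% rose. The counts of these short lists were not tested against those shares. Irf3, the factor that carries the signal of STING and MAVS to the interferon genes, had 54.9, 58.5, 52.2, 55.6 and 65.6 CPM in light damage, against 67.1, 57.4, 75.7, 74.1 and 68.1 CPM in control, with a log2 fold change of -0.26, with a standard error of 0.08 and an adjusted p of 0.0387 in edgeR's quasi-likelihood test. Samhd1, which depletes nucleotides and limits cytosolic DNA, had 32.6, 35.4, 38.9, 33.5 and 37.9 CPM with light damage and 42.7, 40.4, 46, 41.2 and 42.3 CPM in control, with a log2 fold change of -0.25, with a standard error of 0.07 and an adjusted p of 0.0208 in edgeR's quasi-likelihood test. With 1 library left out, Irf3 stayed called in 3 of 10 fits (without light damage library 5, control library 1 or control library 2) and Samhd1 in 6 of 10 (lost without light damage library 1, 2 or 4 or control library 3), and their highest adjusted p in these fits were 0.103 and 0.0597. By limma-voom Samhd1 alone of the called pathway genes stayed called, with adjusted p-values of 0.0539 for Stat5b, 0.0543 for Irf3 and 0.0907 for Ifi30. Scaled by library totals alone, none of the 4 was called. Irf3 was also the 1 gene called among the 7 other interferon regulatory factors. Scores of the sensing list lay between -0.13 and 0.25 in light damage and between -0.20 and 0.18 in control, a far narrower range than that of the stimulated genes. Sting1 had 1.23, 2.17, 2.37, 0.997 and 0.779 CPM in light damage, while control held 1.11, 0.772, 1.74, 0.698 and 0.548 CPM. Cgas had at most 7 counts in any library and was not tested. Of 11 listed interferon genes 0 were matched to a row of the count table, so none was analysed here.

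Cell type markers moved with part of this pattern. All 15 microglial markers, the genes of the resident macrophages of the retina, had positive fold changes, with a log2 median of 0.60. Of the 15, 1 was called, against 13.2% of all tested genes. That was Csf1r, the receptor of colony-stimulating factor, with 22.7, 27.7, 32.2, 17.4 and 19.1 CPM with light damage and 17, 13.7, 13, 14.7 and 14.7 CPM in control and a log2 fold change of 0.71, with a standard error of 0.15 and an adjusted p of 0.0132 in edgeR's quasi-likelihood test. Csf1r stayed called in all 10 fits that leave out 1 library, and had an adjusted p of 0.0818 without light damage libraries 1 and 2 together. The 15 markers summed to 106, 154, 194, 95.9 and 98.9 CPM in light damage libraries 1 to 5, against 103, 90.1, 94.3, 83.4 and 72.3 CPM in control libraries 1 to 5. They were thus highest in light damage libraries 3 and 2, as the interferon-stimulated genes were, but control library 3 lay within the range of the other controls. The 10 leukocyte markers at hand summed to 10, 21.9, 37.6, 6.26 and 8.79 CPM with light damage and to 8, 5.72, 10.8, 10.7 and 8.36 CPM in control. Of these 3 were tested and 0 called by edgeR's quasi-likelihood test, with 0 at an unadjusted p under 0.05. The score of these 3 was 0.24 in control library 3, the highest of the controls. The T cell genes Cd3e and Cd3g were at 0 or close to it, with 0 counts of Cd3e in every library and at most 2 of Cd3g. Lyz2, a lysozyme of myeloid cells, had 5.26, 12.7, 22.7, 2.94 and 4.95 CPM with light damage and 3.52, 1.67, 4.45, 6.34 and 4.45 CPM in control. The summed rod level was the lowest of its group in light damage library 3 and in control library 3. The part of microglia, leukocytes and rod content in the result was not tested.

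Markers of other cell types had other orders of libraries. Of 12 Müller glial markers 5 rose and 0 fell, while 5.32% of all tested genes rose and 7.85% fell. Among the 5 were Dkk3, Rlbp1, Clu and Slc1a3 at log2 fold changes of 0.47 (SE 0.08), 0.38 (SE 0.08), 0.66 (SE 0.15) and 0.31 (SE 0.08). The score of the 12 markers was 0.31, 0.34 and 0.40 in light damage libraries 1, 2 and 3. It was -0.03 and -0.12 in libraries 4 and 5, so library 1 was high for Müller glia and low for the interferon-stimulated genes. Slc1a3 was not called without light damage library 2 or 3, and the other called marker, Abca8a, stayed called in 4 of 10 such fits. Without light damage libraries 1 and 2 together only Dkk3 of the 12 stayed called, with an adjusted p of 0.0481, against 0.0510 for Rlbp1, 0.101 for Clu, 0.139 for Slc1a3 and 0.235 for Abca8a. Of 13 rod genes 1 rose, Sag, and of 9 lens genes 3 rose, Cryba1, Cryba4 and Crybb2, with the high values in light damage libraries 1 and 2 given above. The count of lens genes depended on the tool, with 9 of 9 higher by DESeq2 and 0 of 9 by limma-voom. With 1 library left out, Sag and Cryba1 stayed called in 2 of 10 fits each and Cryba4 and Crybb2 in 1 of 10 each. Light damage libraries 1 and 2 lay apart for the interferon-stimulated genes, with scores of -0.54 and 0.78. Of 10 endothelial and 7 pigment epithelial and ciliary body markers 0 were called by edgeR's quasi-likelihood test, with 1 and 0 at an unadjusted p under 0.05.

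**Figure D5:**
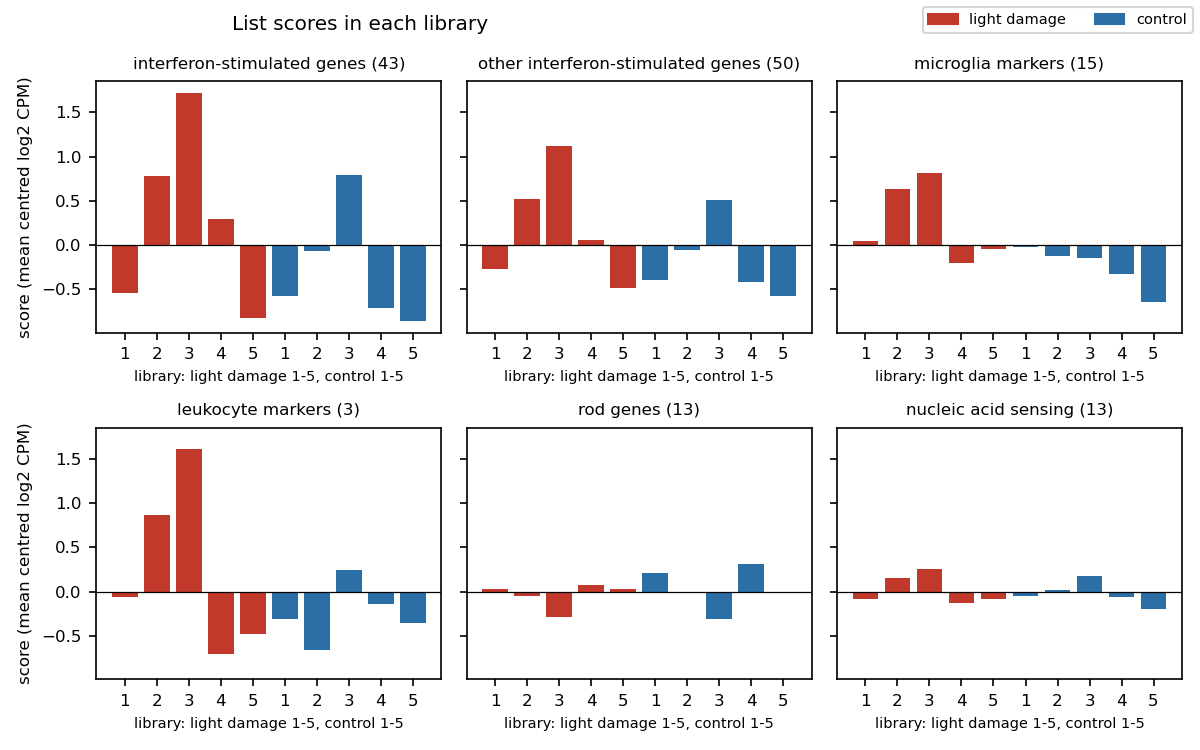
Score of 6 gene lists in each library, computed as for the interferon-stimulated genes in the text, with light damage libraries 1 to 5 left of control libraries 1 to 5 and the number of genes in brackets. Light damage libraries 3 and 2 are high for interferon-stimulated genes and for microglial and leukocyte markers. Control library 3, at 0.79 for the interferon-stimulated genes, is at -0.15 for microglial markers. For the 3 leukocyte markers it is at 0.24, the highest of the controls.

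The comparison depends on which library is left out, in size though not in the number of calls. The median log2 fold change of the members was 0.27 without light damage library 3 and 1.12 without control library 3, and 0 members were called in either fit. Without light damage library 3 the fold change of 9 of the 43 members turned negative. Members whose promoter held the ISRE core had a median log2 fold change of 0.96 (19 tested genes) and those whose promoter did not had 0.42 (14 tested genes), while the 10 tested genes with no promoter entry had 0.86. The ratio of light damage library 3 to the other 4 had medians of 3.56, 2.92 and 3.66 in these sets. The differences between the sets were not tested.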

How the data were processed

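Retinal RNA of mice gave 10 sequencing libraries, 5 from the light damage model and 5 controls, grouped by their titles. The authors deposited 1 table of whole-number counts per gene; build GRCm39, RSEM 1.3.1, DESeq2 1.4.5 and Bowtie2 are listed in the submitters' processing notes. The sources used here do not say whether RSEM estimates were rounded, nor how reads matching several gene copies were split. All libraries carry 1 batch entry, so no batch could be compared.

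Gene symbols were taken from a table of gene names, which matched 19892 of 19999 identifiers. The members and lists were chosen with earlier results of these data known. Genes were kept by filterByExpr (minimum count 10), scaled by TMM and tested with edgeR 4.0.16 (robust quasi-likelihood fit, Benjamini-Hochberg adjustment over all 16852 genes, threshold 0.05) under R 4.3.3. The standard error is the absolute log2 fold change divided by the square root of F. Scores used log2 CPM with a prior count of 2. CPM per kilobase used transcript lengths of GENCODE M21, which is on GRCm38. The procedure was tested on simulated data. Alternatives were DESeq2 1.42.0, limma-voom (limma 3.58.1), library totals alone, other filters, a replicate block and leaving libraries out.

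Full values are given for the 4 members with the lowest p, the 4 with the largest absolute fold change, the 4 with the highest CPM per kilobase and those that failed the filter, with up to 4 called genes per list. Isg15, B2m, Sting1, Lyz2 and other members given per library were added after their values were seen.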

Additional observations from a re-analysis of the deposited data

Results flagged for a closer look

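In 21 of 92 groups examined, each the 5 values of 1 member in light damage or in control, the highest library stood apart from the other 4 by Dixon's test at the 95% level. Chance flags about 1 group in 20 where values are normally distributed, and the share flagged over all tested genes is not given here. The groups include members that failed the filter on low counts. The members share the same 10 libraries, so these groups are not independent. In all 21 the library that stood apart was number 3.

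Light damage library 3 stood apart in 5 members. It held 11.2 CPM of Dhx58, 6.96 CPM of Oas1a, 39.3 CPM of Bst2, 13.6 CPM of Trim30a and 5.06 CPM of Ifi44.

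Control library 3 stood apart in 16 members. Among sensors and transcription factors it held 4.12 CPM of Dhx58, 81.1 CPM of Stat2 and 56.7 CPM of Irf9. Among the IFIT, OAS, ISG15 and Mx genes it held 21.6 CPM of Ifit1, 43.2 CPM of Ifit3, 2.77 CPM of Oasl1, 7.16 CPM of Isg15, 7.86 CPM of Usp18 and 1.74 CPM of Mx1. Among the GTPases it held 14.0 CPM of Gbp3, 19.1 CPM of Irgm1 and 3.80 CPM of Iigp1. The remaining members were Rsad2 with 12.5 CPM, Parp14 with 18.2 CPM, Rtp4 with 3.04 CPM and Cxcl10 with 12.4 CPM. Dhx58 was the 1 member in which library 3 stood apart in both groups.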

How the results depend on the processing

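The number of members called was 0 under DESeq2, limma-voom, library totals alone, both other filters and each fit with libraries left out. With the replicate block it was 20 of 43, all higher, while 19.5% of all tested genes were called in that fit. The numbers do not pair the libraries by the rule used here, which required a correlation of 0.1. Same-number correlations ran from 0.05 to 0.32, the highest being that of the pair numbered 3, with the second highest at 0.07. In light damage 2 of 5 libraries and in control 3 of 5 correlated best with their own number. With the replicate block the genes called higher were 1431 of 16852, and 1854 were lower. Without light damage libraries 1 and 2 they were 135, and 268 were lower; without both libraries numbered 3, a setting chosen after seeing the data, 280 were higher and 523 lower. Leaving out 1 library gave 399 to 1347 genes higher and 723 to 1644 lower, and a median log2 fold change of the members of 0.27 to 1.12.

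Signs turned in 12 members, none of them called. With 1 library left out, log2 fold changes ran from -0.23 to 0.14 for Stat2, -0.20 to 0.60 for Irf7, -0.13 to 0.71 for Irf9, -0.12 to 0.61 for Oas2, -0.30 to 0.89 for Mx2, -0.25 to 0.93 for Iigp1, -0.13 to 1.57 for Rsad2, -0.11 to 0.64 for Eif2ak2, -0.02 to 0.79 for Xaf1, -0.20 to 0.55 for Sp100, -0.21 to 0.04 for Trim25 and -1.73 to 0.70 for Cxcl10. Without light damage libraries 1 and 2, Stat2 had 0.02. Without both libraries numbered 3, Irf7 had -0.11, Oas2 -0.11 and Cxcl10 0.51. The cause was not tested. Low counts limit Oas1a, Oas2, Zbp1, Ifi44, Iigp1 and Cxcl10, and the 3 members that failed the filter.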

Other observations

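Library 3 of both groups shared more than the interferon-stimulated genes. Of all tested genes, 241 (1.43%) stood at least 2-fold above the median of the other 4 libraries in light damage library 3 and 324 (1.92%) did so in control library 3. The 100 genes that did so in both held 31 of the 43 tested members, 31.0% of these genes. Among the rest, 61 had a mean of at least 1 CPM, and 22 of the 61 stood in the list of other interferon-stimulated genes. By edgeR's quasi-likelihood test between light damage and control 0 of the 61 were called, against 13.2% of all tested genes. Choosing genes that are high in library 3 of both groups favours a wide spread within groups. The count of 0 therefore follows largely from the choice and is no result about these genes. These genes were named after their values were seen, and no test was made of them as a group.

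Nlrc5, which drives MHC class I genes, had 0.559, 5.48, 5.96, 1.99 and 0.612 CPM in light damage libraries 1 to 5, against 1.36, 2.89, 6.02, 0.761 and 1.23 CPM in control libraries 1 to 5. Gbp9, another guanylate-binding protein, had 2.40, 8.17, 18, 5.32 and 2.28 CPM in light damage and 3.37, 4.24, 11.1, 2.98 and 2.33 CPM in control. Library 3 was the highest of its group for both, and for Nlrc5 control library 3 was the highest of all 10. Genes outside interferon lists were present as well. Bcl3, a regulator of NF-kappaB, had 1.90, 9.10, 11.4, 4.60 and 3.12 CPM in light damage and 2.72, 4.76, 10.6, 1.59 and 0.480 CPM in control. Lif, a cytokine made by stressed retina, had 0.727, 2.07, 2.51, 0.886 and 1.06 CPM in light damage, against 0.352, 1.41, 4.66, 0.317 and 1.03 CPM in control. Icam1, an adhesion molecule for leukocytes, had 1.73, 2.64, 3.74, 1.27 and 0.946 CPM in light damage and 0.855, 0.643, 2.39, 0.698 and 0.274 CPM in control. For Lif the highest library was control library 3, and for Bcl3 and Icam1 light damage library 3.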
